A study of Homo sapiens with 6 samples.

Results

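H19, IGF2 and 8 linked genes, IGF1R, IGF2R, IGF2BP1, IGF2BP2, IGF2BP3, CDKN1C, MEG3 and PEG10, were followed in control and ApoD-overexpressing cells of a human line. They were chosen by name, and selected on their values in the same comparison of ApoD overexpression with control, as earlier results gave them. Of the 10 genes 9 had a row among the 21676 gene symbols of the count table, and MEG3 was not analysed here. All 9 passed the low-count filter that left 14629 genes for testing. The series holds 6 RNA sequencing libraries of the 83 line, described by its submitters as a SACC cell, a term that usually stands for salivary adenoid cystic carcinoma. There were 3 libraries from control cells (titled NC) and 3 from cells with ApoD overexpression (titled OE). Apolipoprotein D is a secreted lipid-binding lipocalin. The labels do not say what the control cells received, how the gene was introduced, whether the cells were 1 clone, or whether the libraries came from separate cultures, so the spread below may be technical.

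H19 is a long noncoding RNA made from the maternal copy of an imprinted domain, and IGF2, a growth factor of fetal tissue, is made from the paternal copy of the same domain. A control region, methylated on the paternal copy and bound by the insulator protein CTCF on the unmethylated copy, sets which of the pair is active. IGF2 signals through IGF1R, a receptor tyrosine kinase, and is removed by IGF2R, which carries it to the lysosome and also sorts enzymes tagged with mannose 6-phosphate. The IGF2BP proteins bind messenger RNAs, IGF2 among them, and IGF2BP1 and IGF2BP3 are made mostly before birth and in tumours. CDKN1C, the CDK inhibitor p57, is maternally expressed from a second domain near H19. PEG10, a paternally expressed gene, derives from a retrotransposon.

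The libraries held 37542568 to 40416964 counts. APOD was counted 9, 8 and 2 times in the control libraries and 628, 528 and 625 times with ApoD overexpression. All 9 epithelial markers had a row, and their summed level was 2045 to 2515 FPKM (counts scaled by gene length and library total) in controls and 2097 to 2281 FPKM with ApoD overexpression. The sum hides unequal changes: at an edgeR adjusted p of 0.05, 5 of the 9 fell and 1 rose, 66.7% called against 48.8% of all tested genes. KRT14, CDH1 and TP63 had log2 fold changes of −1.75 ± 0.21, −1.29 ± 0.11 and −1.05 ± 0.13 (SE). Those of EPCAM and KRT17 were −0.30 ± 0.09 and −0.28 ± 0.09, and KRT7 rose by 0.48 ± 0.14. Of the adenoid cystic carcinoma markers MYB, KIT, SOX10 and NFIB only MYB and NFIB could be read, at 2.48 to 4.67 FPKM together. Low-level markers of other cell types were lower with ApoD overexpression: fibroblast markers summed to 4.86 to 5.73 FPKM in controls and 1.58 to 2.27 FPKM, and endothelial markers to 1.31 to 1.92 FPKM and 0.175 to 0.287 FPKM. Leukocyte markers summed to at most 0.241 FPKM in any library. Genes with a mean count under 100 took 0.374% to 0.446% of the control counts and 0.237% to 0.262% with ApoD overexpression. The part of these shifts in the results below was not tested.

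H19 was one of the most abundant transcripts of the control cells and was 5.59-fold lower with ApoD overexpression. IGF2, its partner in the domain, was close to the limit of detection in both groups. CDKN1C was 1.63-fold lower, IGF2BP1 was 1.58-fold higher, and IGF1R, IGF2R, IGF2BP2, IGF2BP3 and PEG10 differed by less than 1.2-fold. In the edgeR fit across all genes 3 of the 9 passed an adjusted p of 0.05, namely H19 and CDKN1C (lower) and IGF2BP1 (higher), where 48.8% of all tested genes passed (24.2% higher and 24.6% lower). These genes were chosen with this comparison in view, so their values are a description with no test, and nothing is read from that count. With library totals as the only scaling 1 passed as higher and 5 as lower. In 6 of the 9 genes the control and ApoD overexpression ranges were separate, against 58.7% of all tested genes.

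**Figure D1:**
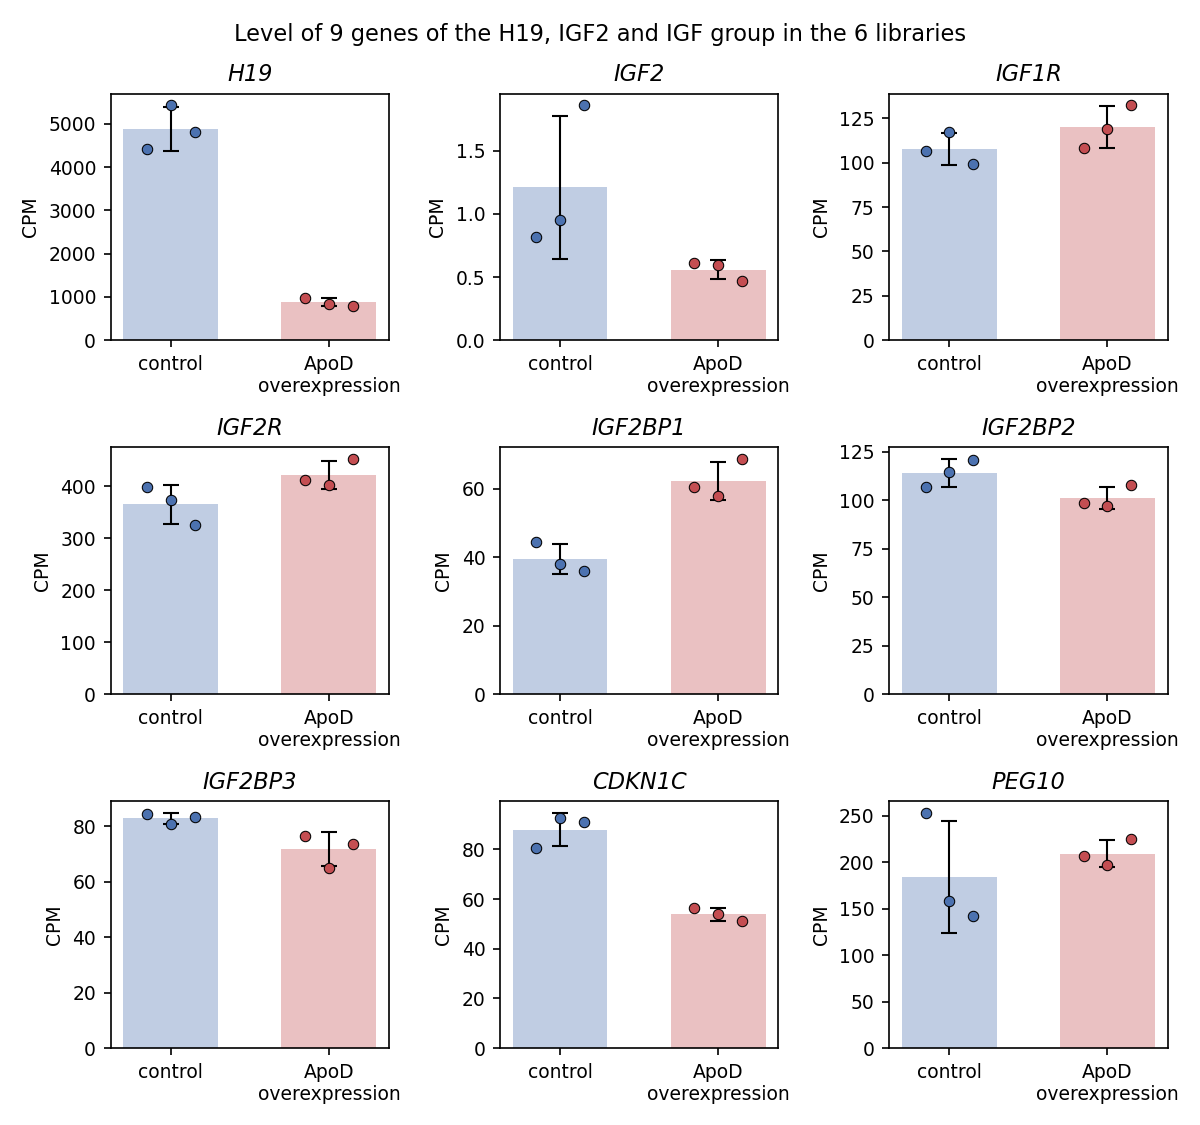
Each panel shows 1 gene, with its level in CPM (counts scaled to a common library size, with TMM factors) on an axis that starts at 0. Bars are means, lines are ± SD over 3 libraries, and points are single libraries; the H19 points lie at 4413 to 5427 CPM in controls and 795 to 980 CPM with ApoD overexpression, and 1 control library of PEG10 stands above its group at 253 CPM.

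H19 was counted 178042, 222274 and 199546 times in the control libraries and 38579, 30051 and 30444 times with ApoD overexpression. Every control library was above every ApoD overexpression library, with a gap of 3434 CPM between the nearest libraries. The mean level was 4887 ± 510.2 CPM in controls and 873 ± 95.6 CPM under ApoD overexpression (n = 3, SD), a log2 fold change of −2.48 ± 0.11 (SE). In a bulk library less H19 per cell and fewer cells that make it cannot be told apart. H19 took 0.451%, 0.562% and 0.514% of all counts in the controls and 0.0955%, 0.0800% and 0.0762% with ApoD overexpression. By FPKM it ranked 16 to 25 among all genes in the control libraries and 152 to 200 with ApoD overexpression, so it remained an abundant transcript.

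Measured as a difference in CPM, H19 stood lowest of the 14629 tested genes, at −4013 CPM, followed by the mitochondrial transcripts COX1 (−2391 CPM) and ND4 (−2057 CPM). The H19 difference was 4.42% of the summed losses of all tested genes with a lower mean. On the log2 scale it was less exceptional: 403 tested genes, 2.75%, had a lower fold change than H19.

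H19 carries the microRNA miR-675 inside its transcript, and the deposited tables used here give no count for the microRNA itself. Both mature forms were found unbroken in H19-203, the longest H19 transcript of GENCODE release 29, at bases 1054 to 1076 and 1089 to 1108 of 2348. They are shown because they are the known small RNA product of H19, with the seed (bases 2 to 8) in capitals. The sequences are from RefSeq (GRCh38.p14), where both forms lie on the minus strand, at chr11:1996800-1996822 and chr11:1996768-1996787.
hsa-miR-675-5p: uGGUGCGGagagggcccacagug
hsa-miR-675-3p: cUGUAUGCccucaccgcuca
The seeds differ, so both forms are read as separate families. Counts per gene do not say how much of H19 was cut into either form.

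IGF2 was counted 33, 39 and 77 times in the control libraries and 24, 21 and 18 times with ApoD overexpression. The groups did not overlap, but control replicate 3 alone held more counts than the other 2 controls together. The mean level was 1.21 ± 0.567 CPM in controls and 0.557 ± 0.0760 CPM under ApoD overexpression (n = 3, SD), a log2 fold change of −1.12 ± 0.44 (SE), which was −0.65 without control replicate 3. The per-library counts of IGF2-AS, which lies on the other strand, were 0, 0 and 1 in the controls and 0, 0 and 0 with ApoD overexpression. How reads were assigned to a strand is not given in the sources used here, so reads of the pair cannot be told apart. Per length, the H19 level was 6598 to 14511 times that of IGF2 in the control libraries and 3643 to 4306 times with ApoD overexpression.

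The order of the 9 levels per length was similar in both groups. In the controls H19 led with 1959.6 ± 212 FPKM, followed by CDKN1C at 47.2 ± 4.19, PEG10 at 28.8 ± 8.86, IGF2R at 27.0 ± 2.22, IGF2BP2 at 17.8 ± 1.48, IGF2BP3 at 14.2 ± 0.441, IGF1R at 8.36 ± 0.594, IGF2BP1 at 4.50 ± 0.425 and IGF2 at 0.192 ± 0.0942 FPKM (SD, n = 3). PEG10 and IGF2R did not differ beyond their spread. With ApoD overexpression H19 still led at 323 ± 39.2 FPKM, and PEG10 at 30.3 ± 2.22, IGF2R at 28.8 ± 1.92 and CDKN1C at 26.7 ± 1.58 FPKM followed within overlapping ranges. The level of H19 was 39.6 to 43.8 times that of CDKN1C in control libraries and 11.6 to 13.0 times with ApoD overexpression.

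CDKN1C was counted 3244, 3792 and 3762 times in the control libraries and 2225, 1917 and 1958 times with ApoD overexpression. The groups did not overlap, with a gap of 23.9 CPM. The mean level was 88.0 ± 6.59 CPM in controls and 53.9 ± 2.70 CPM under ApoD overexpression (n = 3, SD), a log2 fold change of −0.71 ± 0.09 (SE).

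The genes that flank H19, IGF2 and CDKN1C on chromosome 11 went in both directions. Of 26 genes listed there 24 had a row and 17 were tested; 8 fell and 3 rose, 64.7% called against 48.8% of all tested genes, and their median log2 fold change was −0.44 against −0.02 for all tested genes. TNNT3, the fast skeletal troponin T gene, was counted 995, 2076 and 1686 times in the control libraries and 236, 167 and 189 times with ApoD overexpression, the largest fall of the list (log2 fold change −2.89 ± 0.23 SE, edgeR adjusted p = 3.15e-06). SYT8, a synaptotagmin, LSP1, an actin-binding protein of leukocytes, and TNNI2, fast troponin I, fell, with changes of −1.69 ± 0.15, −1.74 ± 0.18 and −2.07 ± 0.46. CTSD, which encodes the lysosomal protease cathepsin D, fell from 1235 to 795 CPM (log2 fold change −0.64 ± 0.09 SE, edgeR adjusted p = 0.000191).

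MRPL23, a mitochondrial ribosomal protein gene that stands between TNNT3 and H19, was counted 3142, 3524 and 3432 times in the control libraries and 2761, 2958 and 2686 times with ApoD overexpression and did not pass (log2 fold change −0.14 ± 0.10 SE, edgeR adjusted p = 0.251). It was called lower with library totals (−0.26, edgeR adjusted p = 0.0405), with the abundance trend removed (edgeR adjusted p = 0.0366), without ApoD overexpression replicate 2 (0.0475) and on both filtered FPKM settings (limma adjusted p = 0.0344 and 0.0350). LINC01219, the nearest tested gene to H19 on that side in RefSeq, was singled out once its value was known. It was counted 34, 54 and 50 times in the control libraries and 3, 0 and 2 times with ApoD overexpression (log2 fold change −4.58 ± 0.68 SE, edgeR adjusted p = 0.000204), and its change was −5.20 without ApoD overexpression replicate 1. At such counts the SE can understate the counting error. TH, the tyrosine hydroxylase gene beyond IGF2, was counted 46, 62 and 62 times in the control libraries and 71, 15 and 22 times with ApoD overexpression, where replicate 1 stood apart. The TH log2 fold change was −0.56 ± 0.49 (SE), with an edgeR adjusted p of 0.373, and −1.44 without that library (edgeR adjusted p = 0.0225).

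**Figure D2:**
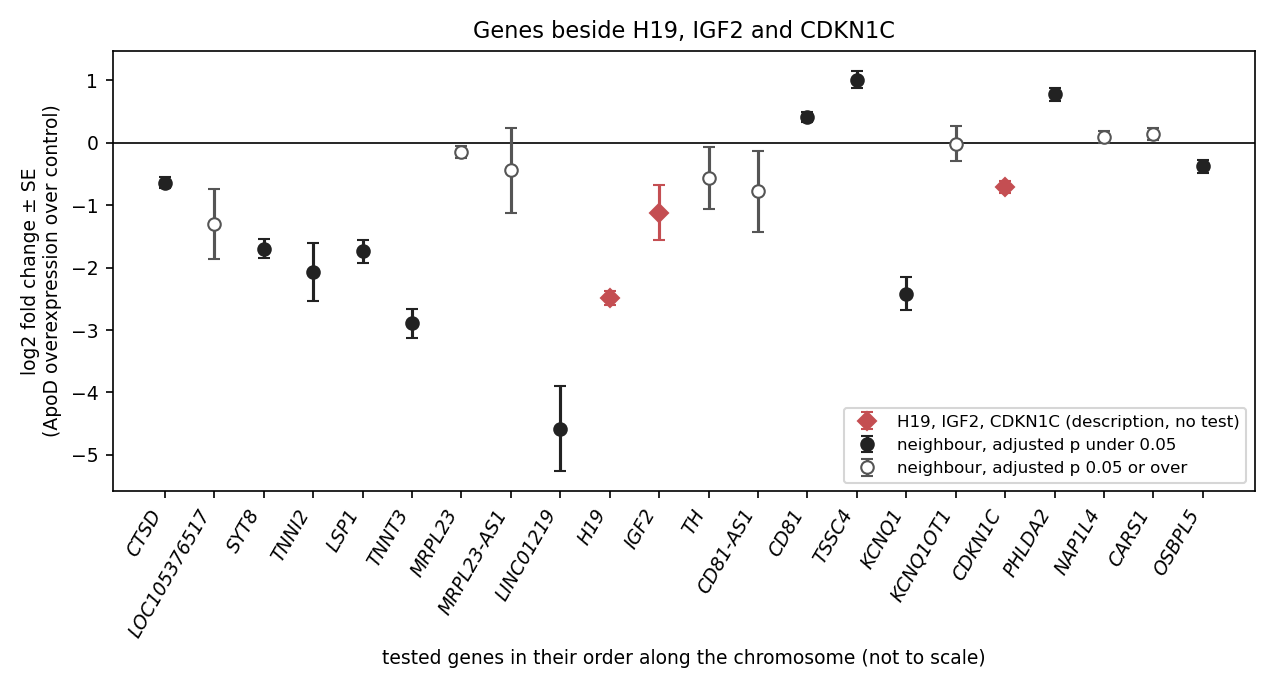
The tested genes between CTSD and OSBPL5 stand in their RefSeq order along the chromosome, equally spaced, with the log2 fold change ± SE (ApoD overexpression over control) on the vertical axis. Red diamonds are H19, IGF2 and CDKN1C, black circles are genes with an edgeR adjusted p under 0.05 and open circles are the others; SLC22A18 is not drawn. All genes on the CTSD side of H19 lie below 0, where LOC105376517, MRPL23 and MRPL23-AS1 are open circles. The low-count MRPL23-AS1 was above 0, at 0.31, without control replicate 3. Of the called genes CD81, TSSC4 and PHLDA2 lie above 0.

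Around CDKN1C the directions were mixed. SLC22A18, a transporter gene of the same maternally expressed domain, was counted 1255, 1712 and 1649 times in the control libraries and 603, 505 and 512 times with ApoD overexpression and fell (log2 fold change −1.39 ± 0.13 SE, edgeR adjusted p = 8.98e-06). KCNQ1, a potassium channel gene of the domain, fell from 4.44 to 0.827 CPM (log2 fold change −2.42 ± 0.26 SE). PHLDA2, another maternally expressed gene of that domain, which restrains placental growth, rose instead. Its counts were 3851, 3287 and 3576 in the controls and 5297, 6011 and 5554 with ApoD overexpression (log2 fold change 0.78 ± 0.11 SE, edgeR adjusted p = 0.000125). TSSC4 and the tetraspanin gene CD81 rose by 1.01 ± 0.14 and 0.41 ± 0.08 on the log2 scale. KCNQ1OT1, the noncoding RNA that silences the domain on the paternal copy, was counted 103, 120 and 69 times in the control libraries and 110, 76 and 82 times with ApoD overexpression, and its log2 fold change of −0.01 ± 0.28 did not pass (edgeR adjusted p = 0.973). KCNQ1OT1 runs antisense to KCNQ1, so reads of that pair cannot be told apart either. OSBPL5 at the far end fell by 0.38 ± 0.10, a call that was lost without control replicate 3 (edgeR adjusted p = 0.0529) or ApoD overexpression replicate 1 (0.0603).

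IGF1R was counted 4304, 4794 and 4119 times in the control libraries and 4269, 4234 and 5072 times with ApoD overexpression. The groups overlapped, at 108 ± 8.83 and 120.0 ± 12.0 CPM (SD, n = 3; log2 fold change 0.16 ± 0.10 SE), and with the abundance trend of each library removed the change was −0.02. IGF2R was counted 16080, 15283 and 13447 times in the control libraries and 16241, 14261 and 17312 times with ApoD overexpression. Its levels were 366 ± 37.5 and 422 ± 26.5 CPM, a log2 fold change of 0.21 ± 0.10 (SE). The CPM ranges of IGF2R missed each other by only 2.95 CPM. The ratio of IGF2R to IGF1R per length was 3.04 to 3.56 in controls and 3.21 to 3.63 with ApoD overexpression, which are overlapping ranges.

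Of the other insulin and IGF family ligands and receptors only INSR, the insulin receptor gene, was tested, with a log2 fold change of −0.15 ± 0.11 (SE, edgeR adjusted p = 0.281). INS had 4 counts in control replicate 3 and 0 in the other libraries, and IGF1 was not analysed here. Of 14 genes for IGF binding proteins and their turnover 8 were tested; 4 fell and 1 rose, 62.5% called against 48.8% of all tested genes, with a median log2 fold change of −0.62. IGFBP2, a carrier of IGFs, was counted 165, 315 and 336 times in the control libraries and 17, 53 and 19 times with ApoD overexpression and fell by 3.05 ± 0.43 on the log2 scale (edgeR adjusted p = 0.000134), with a log2 fold change of −3.84 without ApoD overexpression replicate 2. STC1, which inhibits the protease that cleaves IGFBP4, fell from 2.08 to 0.222 CPM (log2 fold change −3.22 ± 0.48 SE). IGFBP3, the main carrier of IGFs in blood, and IGFBP7 fell by 1.75 ± 0.37 and 0.51 ± 0.12. On unfiltered log2(FPKM + 1) the IGFBP3 change was −0.97 and its call was lost (limma adjusted p = 0.0597). IGFBP6, which prefers IGF2 and was picked out after its values were seen, had by far more counts than these, 14405, 17984 and 15950 in the controls and 13737, 12870 and 11786 with ApoD overexpression, and did not pass (log2 fold change −0.21 ± 0.10 SE, edgeR adjusted p = 0.104). STC2, also singled out afterwards, rose by 0.35 ± 0.10, a call that was lost with library totals, on all 3 FPKM settings and with the abundance trend removed.

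Signalling genes below the receptors included 23 tested genes, of which 9 fell and 4 rose, 56.5% called against 48.8% of all tested genes, with a median log2 fold change of −0.20. GAB1, a docking adaptor, fell by 1.05 ± 0.23 on the log2 scale. FOXO1, FOXO4 and FOXO3, the transcription factors that AKT keeps out of the nucleus, fell by 0.72 ± 0.15, 0.69 ± 0.10 and 0.58 ± 0.10 (highest edgeR adjusted p = 0.00231, for FOXO1). The 4 genes that rose were MTOR, AKT1, PTPN1 and PDPK1, named here after their values were seen. They rose by 0.53 ± 0.11, 0.45 ± 0.09, 0.40 ± 0.08 and 0.32 ± 0.12 (highest edgeR adjusted p = 0.0462, for PDPK1). With single libraries left out, 3 to 4 genes of this list were called higher. Of 7 genes for mannose 6-phosphate tagging and sorting 3 rose and 1 fell, 57.1% called against 48.8% of all tested genes. M6PR, the smaller mannose 6-phosphate receptor that shares cargo with IGF2R, was counted 8431, 7656 and 7945 times in the control libraries and 12177, 11893 and 12102 times with ApoD overexpression and rose (log2 fold change 0.71 ± 0.09 SE, edgeR adjusted p = 5.46e-05). NAGPA, which uncovers the tag, and the sorting adaptor GGA3 rose by 0.61 ± 0.12 and 0.42 ± 0.10, and GGA1, another adaptor, fell by 0.55 ± 0.10.

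The 3 IGF2BP genes went in different directions. IGF2BP1 was counted 1789, 1550 and 1487 times in the control libraries and 2376, 2051 and 2626 times with ApoD overexpression. Its groups did not overlap, at 39.4 ± 4.42 and 62.2 ± 5.63 CPM (SD, n = 3; log2 fold change 0.66 ± 0.11 SE). IGF2BP2 was counted 4305, 4694 and 5009 times in the control libraries and 3880, 3453 and 4128 times with ApoD overexpression. Its groups overlapped by 1 library on each side, at 114 ± 7.14 and 101 ± 5.73 CPM (log2 fold change −0.17 ± 0.09 SE). IGF2BP3 was counted 3398, 3303 and 3450 times in the control libraries and 3014, 2306 and 2819 times with ApoD overexpression. Its groups were separated by 4.10 CPM, at 82.7 ± 1.86 and 71.7 ± 6.03 CPM (log2 fold change −0.21 ± 0.09 SE).

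Within the summed FPKM of the family the share of IGF2BP1 was 12.4% ± 1.53 in controls and 20.3% ± 0.780 under ApoD overexpression (n = 3, SD). The share of IGF2BP2 was 48.7% ± 2.42 and 44.8% ± 1.35, and that of IGF2BP3 was 38.9% ± 0.912 and 34.9% ± 1.87. IGF2BP2 stayed the largest and IGF2BP1 the smallest in all 6 libraries. A share within a library shows unequal change among the 3 genes and does not say which of them changed. The 3 genes are close relatives, and reads from stretches they have in common could be counted for a paralog.

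**Figure D3:**
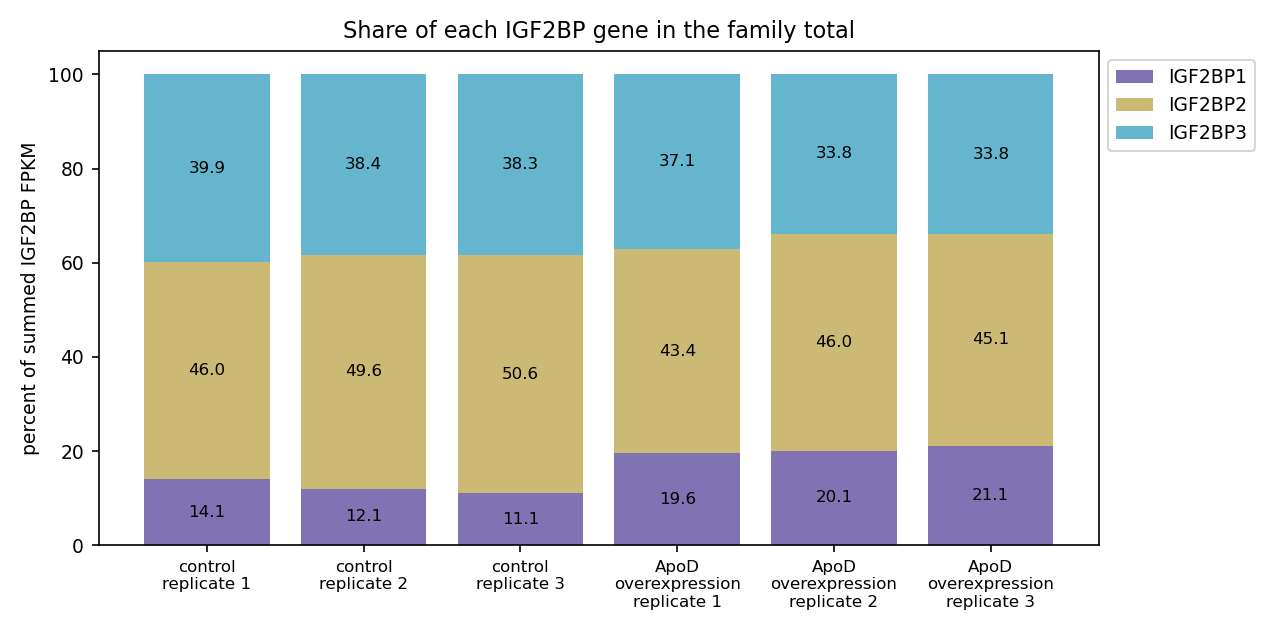
Each bar is 1 library, and its segments are the percent of the summed IGF2BP1, IGF2BP2 and IGF2BP3 FPKM that each gene took. The IGF2BP1 segment is 11.1% to 14.1% in the controls and 19.6% to 21.1% with ApoD overexpression.

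The IGF2BP genes are known targets of the microRNA let-7, so their transcripts were searched for CTACCTC, the 7 letters complementary to the let-7 seed, on the transcript strand. The longest GENCODE release 29 transcript of each gene was used. IGF2BP1 held 4 matches, all of them in its 3′ UTR, and 0.635% of the 788 genes with a longest transcript within 10% of its length held at least as many. IGF2BP2 and IGF2BP3 held 1 match each, in the 3′ UTR, where 23.5% and 25.9% of genes of like length held at least 1. IGF1R held 3 matches (1 coding and 2 in the 3′ UTR), which 5.02% of genes of like length reached. IGF2R held 2 and IGF2 held 1, in its 5′ UTR, which 30.8% and 31.6% of genes of like length reached. H19, CDKN1C and PEG10 held 0 in the transcripts searched. Genes of like length were matched neither by transcript type nor by 3′ UTR length. The IGF2BP1 matches are printed in capitals because IGF2BP1 is the gene of its family that differed most, below the let-7a sequence of RefSeq with its seed in capitals.
hsa-let-7a-5p: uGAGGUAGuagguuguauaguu
IGF2BP1 bases 3685 to 3707: tgtgtgcgaagtaaaCTACCTCa
IGF2BP1 bases 6322 to 6344: cagcagtgctagtaaCTACCTCa
IGF2BP1 bases 6976 to 6998: gtataaatggattaaCTACCTCa
IGF2BP1 bases 7621 to 7643: tcacttttgttttatCTACCTCt
These matches are letters in a reference transcript, and neither mature let-7 nor the transcript ends used in these cells were measured.

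Genes of let-7 processing and known let-7 targets included 10 tested genes, of which 5 rose and 2 fell, 70% called against 48.8% of all tested genes, with a median log2 fold change of 0.24. HMGA2, a chromatin protein and classic let-7 target, was counted 1219, 1374 and 1628 times in the control libraries and 4490, 3658 and 4399 times with ApoD overexpression and rose (log2 fold change 1.69 ± 0.11 SE, edgeR adjusted p = 9.07e-07). MYC and HMGA1 rose by 0.71 ± 0.08 and 0.56 ± 0.10. The processing genes DGCR8 and DROSHA, picked out after their values were seen, also rose, by 0.48 ± 0.10 and 0.27 ± 0.10 (highest edgeR adjusted p = 0.0451, for DROSHA). DICER1 and TUT7 were picked out in the same way. DICER1 did not pass (−0.03 ± 0.16), and TUT7 fell, with a log2 fold change of −0.49 ± 0.18 (edgeR adjusted p = 0.0442). The TUT7 call was lost without control replicate 2 and on unfiltered log2(FPKM + 1), where 0 genes of the list were called lower. Only 1 gene of the list was called lower without control replicate 1 or without ApoD overexpression replicate 2. The list holds both genes that process let-7 and its targets, so its count and median are not read as 1 direction of let-7. MIRLET7BHG, a host gene of let-7 microRNAs, fell by 0.80 ± 0.28 on the log2 scale (edgeR adjusted p = 0.0357). That call was lost without control replicate 2 (edgeR adjusted p = 0.187) or 3 (0.0820) and without ApoD overexpression replicate 1 (0.0785) or 3 (0.106), and also with the abundance trend removed (0.245) and on unfiltered log2(FPKM + 1) (limma adjusted p = 0.115).

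Transcripts reported as bound by IGF2BP proteins included 15 tested genes, of which 8 rose and 3 fell, 73.3% called against 48.8% of all tested genes, with a median log2 fold change of 0.36. Besides HMGA2 and MYC, which stand in both lists, PDLIM7, an actin-associated protein, and CCND3, which encodes cyclin D3, rose by 0.87 ± 0.09 and 0.75 ± 0.10 (highest edgeR adjusted p of the pair 6.59e-05, for CCND3). IGF2BP proteins read the RNA mark m6A, and genes that write, erase or read it included 15 tested genes. Of these 7 rose and the others did not pass, 46.7% called against 48.8% of all tested genes, a share near that background. With library totals and on all 3 FPKM settings 1 fell. YTHDF1, a reader, and RBM15B, WTAP and CBLL1, parts of the writer complex, rose by 0.54 ± 0.09, 0.53 ± 0.11, 0.45 ± 0.09 and 0.49 ± 0.10; the CBLL1 call was lost on unfiltered log2(FPKM + 1) (limma adjusted p = 0.0572).

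**Figure D4:**
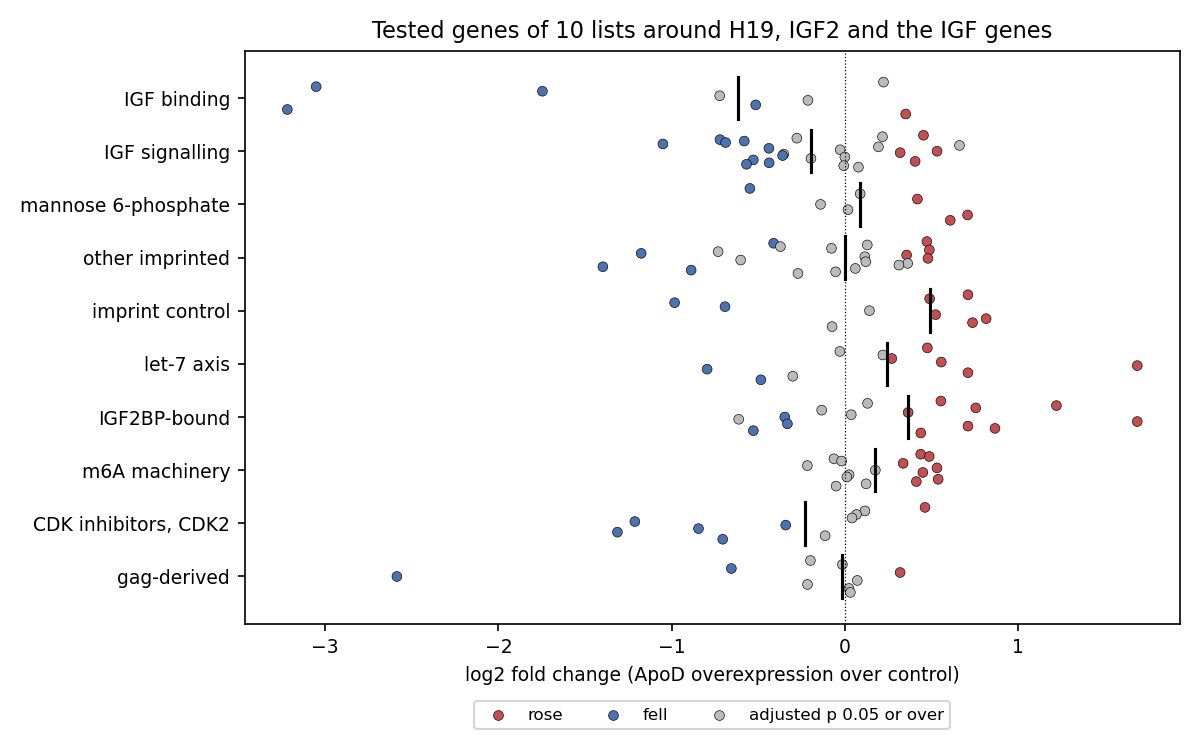
Each point is a tested gene of 1 of 10 lists, placed by its log2 fold change (ApoD overexpression over control); red points rose, blue points fell and grey points had an edgeR adjusted p of 0.05 or over. Black bars are list medians, which run from −0.62 for IGF binding to 0.49 for imprint control.

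PEG10 was counted 10197, 6472 and 5878 times in the control libraries and 8151, 6985 and 8603 times with ApoD overexpression. Control replicate 1 was above every other library and the other 2 controls were below all of them. The levels were 184 ± 59.9 and 209 ± 14.1 CPM (SD, n = 3; log2 fold change 0.18 ± 0.17 SE). Without control replicate 1 the change was 0.49, without control replicate 3 it was 0.04, and with the abundance trend removed it was −0.00034. Of 13 genes beside PEG10 9 were tested; 2 rose and 1 fell, 33.3% called against 48.8% of all tested genes. TFPI2, a secreted protease inhibitor, was counted 137, 166 and 218 times in the control libraries and 372, 367 and 321 times with ApoD overexpression and rose (log2 fold change 1.15 ± 0.19 SE, edgeR adjusted p = 0.000466). PDK4, a kinase that holds back pyruvate oxidation, fell by 2.28 ± 0.32 on the log2 scale, and PON2 rose by 0.36 ± 0.09. The PON2 call was lost with the abundance trend removed (0.21, edgeR adjusted p = 0.0818). SGCE, which shares its imprinted promoter region with PEG10, was counted 1424, 1456 and 1332 times in the control libraries and 1135, 1095 and 962 times with ApoD overexpression. It did not pass (log2 fold change −0.28 ± 0.11 SE, edgeR adjusted p = 0.0506) but did with library totals (edgeR adjusted p = 0.0101), with the abundance trend removed (0.0301), without ApoD overexpression replicate 2 (0.0229) and on all 3 FPKM settings.

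Of 9 genes beside MEG3 3 were tested and 0 passed in edgeR: BEGAIN, WDR25 and WARS1 had log2 fold changes of −0.05 ± 0.34, 0.18 ± 0.16 and 0.25 ± 0.11 (SE), and 1 of them, WARS1, had an unadjusted p under 0.05 (edgeR, 0.0447); DESeq2 also called 0. WARS1 passed without control replicate 1 (edgeR adjusted p = 0.00367) and with no low-count filter (0.0405). DLK1, the paternally expressed partner of MEG3, had 0, 1 and 1 counts in the controls and 0 in each ApoD overexpression library.

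Other imprinted genes went both ways, with 4 of 20 tested members higher and 4 lower, 40% called against 48.8% of all tested genes, and a median log2 fold change of 0.00. TP73, a p53 relative, was counted 1376, 1940 and 1478 times in the control libraries and 697, 464 and 525 times with ApoD overexpression and fell (log2 fold change −1.40 ± 0.16 SE, edgeR adjusted p = 2.71e-05). L3MBTL1, a chromatin reader, and ZDBF2 fell by 1.18 ± 0.17 and 0.89 ± 0.23. GRB10, an adaptor that dampens IGF1R and insulin receptor signalling, rose by 0.49 ± 0.12 (edgeR adjusted p = 0.00646), a call that was lost on unfiltered log2(FPKM + 1) (limma adjusted p = 0.0831).

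Factors that hold or read imprinted methylation included 9 tested genes, of which 5 rose and 2 fell, 77.8% called against 48.8% of all tested genes, with a median log2 fold change of 0.49. CTCF, the insulator protein of the H19 and IGF2 domain, was counted 2487, 1947 and 1900 times in the control libraries and 3055, 2957 and 3555 times with ApoD overexpression and rose (log2 fold change 0.71 ± 0.12 SE, edgeR adjusted p = 0.000572). TRIM28, a corepressor that guards imprints, and UHRF1, which brings DNMT1 to replicating DNA, rose by 0.81 ± 0.12 and 0.74 ± 0.11. DNMT3A, a DNA methyltransferase that sets new methylation, fell from 19.7 to 9.98 CPM (log2 fold change −0.98 ± 0.13 SE, edgeR adjusted p = 7.46e-05). No methylation was measured in this series as analysed here.

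In a list of other CDK inhibitors with CDK2 and its cyclins 5 of 10 members fell and 1 rose, 60% called against 48.8% of all tested genes. CDKN1A, which encodes p21, was counted 3981, 5820 and 5146 times in the control libraries and 2310, 1830 and 1814 times with ApoD overexpression and fell (log2 fold change −1.21 ± 0.13 SE, edgeR adjusted p = 2.47e-05). CDKN2B, CDKN2A and CDKN2D, inhibitors of CDK4 and CDK6, fell by 1.31 ± 0.15, 0.84 ± 0.10 and 0.71 ± 0.19. All 5 falls were in inhibitors, but the inhibitor CDKN2C did not pass (−0.11 ± 0.13, edgeR adjusted p = 0.494). CDK2, the kinase that CDKN1C binds, had a log2 fold change of 0.04 ± 0.09 that did not pass (edgeR adjusted p = 0.725).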

How the data were processed

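RNA sequencing libraries were made from total RNA with a SMARTER mRNA-Seq kit, per the labels' protocols; which aligner, counter, strand setting and build were used is not given in the sources used here. The authors deposited whole-number read counts per gene symbol and a table of FPKM values, which equal those counts divided by the library total and a single length per gene. No column was left without a sample (0). The 10 genes and all lists were chosen with earlier results of these data known.

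The fit across genes was edgeR 4.0.16 in R 4.3.3 (quasi-likelihood, two-sided), with TMM scaling, filterByExpr (minimum count 10) and Benjamini-Hochberg adjustment over 14629 genes, at a threshold of 0.05. The SE of a log2 fold change (ApoD overexpression over control) comes from its F statistic. Text values of CPM use TMM-scaled totals. No set test was run: lists are described by counts and medians. The functions were tested on simulated data. The alternatives were DESeq2 1.42.0, other scalings, no filter, the replicate number as a block, each library left out, and limma 3.58.1 on log2(FPKM + 1) or log2(FPKM + 0.1) with or without a filter of 1 FPKM in 3 libraries.

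Named genes were the 10, APOD, up to 4 called genes per list by size of change, the tested neighbours of the 5 imprinted genes, and the 3 genes nearest in pattern to H19 and to IGF2; some are not described. Library totals (37542568 counts or more) leave little counting error for well-counted genes and much for IGF2. Genome coordinates of genes are not given, since the build is unknown. RefSeq gave gene order, and GENCODE release 29 transcripts the searched sequences.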

Additional observations from a re-analysis of the deposited data

How the results depend on the processing

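No result changed sign past its threshold under any alternative. The counts of all genes called higher and lower were within 1.5 times of the 3539 and 3601 reported, except 2317 higher on unfiltered log2(FPKM + 1); with library totals they were 2581 and 4432, and the list genes split 35 to 51 against 42 to 41. Library totals shift the median log2 fold change of all genes from −0.02 to −0.13. Of the 9 genes, 5 were then called lower, and 4 on FPKM under each of the 3 settings and with the abundance trend removed; leaving out single libraries gave 1 to 3 called higher, with 3 without control replicate 1, and 2 to 3 lower. The log2 fold changes that moved by more than the replicate spread were, with library totals, IGF2BP2 −0.29, IGF2BP3 −0.32 and CDKN1C −0.83. On filtered and unfiltered log2(FPKM + 1) they were IGF2BP1 0.46, IGF2BP2 −0.27 and IGF2BP3 −0.30, and IGF2 −0.14 without the filter, where the pseudocount exceeds its level. On log2(FPKM + 0.1) they were IGF2BP2 −0.29, IGF2BP3 −0.32 and CDKN1C −0.82. With the trend removed they were H19 −2.67, IGF2 −0.50, IGF1R −0.018, IGF2R 0.0082, IGF2BP2 −0.35, IGF2BP3 −0.35 and CDKN1C −0.84. IGF2 ran from −1.33 to −0.65 with single libraries left out. Where no construction is named, the cause was not tested. With the replicate number as a block 3088 genes were called higher and 3260 lower. Same-numbered libraries did not deviate together (r −0.26 to −0.07), so no pairing was taken from the numbers. With 3 libraries per group this cannot show that the cultures were unpaired. IGF2 could not be fitted on filtered FPKM. Depth limits IGF2 and LINC01219.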

Other observations

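The profile nearest to that of H19 over the 6 libraries belonged to PNMA2, a gene that, like PEG10, derives from a retrotransposon gag sequence. It was counted 391, 437 and 433 times in the control libraries and 79, 55 and 60 times with ApoD overexpression. Likeness was the root mean square difference of the centred log2 CPM profiles among 11504 genes whose counts averaged 100 or more, and it was 0.078 for PNMA2, 0.11 for AOC1, a diamine oxidase gene, and 0.13 for INPP5D, a lipid phosphatase gene. The same 3 genes came first with a prior count of 0.5. These profiles hold the group difference, so the values are a description. The nearest profiles to IGF2 were those of FOXQ1, LRRC3 and KREMEN2, at 0.11, 0.15 and 0.17, where control replicate 3 was the highest library, as it was for IGF2. With a prior count of 0.5 FOXQ1 and LRRC3 again came first, but MAOA took the place of KREMEN2, at 0.17.

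Of 20 other genes derived from retrotransposon gag 9 were tested, 2 fell and 1 rose, 33.3% called against 48.8% of all tested genes. PNMA2 fell by 2.59 ± 0.19 on the log2 scale (edgeR adjusted p = 1.68e-06) and MOAP1, a promoter of apoptosis, by 0.66 ± 0.12. PNMA1 rose by 0.32 ± 0.09, a call that was lost without control replicate 2 (edgeR adjusted p = 0.0614), with library totals (0.0816), with the abundance trend removed (0.0710) and on both filtered FPKM settings (limma adjusted p = 0.0519 and 0.0516). RTL8A (0.02), RTL8C (0.03), RTL10 (0.07) and LDOC1 (−0.01), singled out once these log2 fold changes were known, did not pass. Of 8 genes of fetal tissue often found in tumours only HMGA2 and SALL4 had enough counts to test. SALL4 was counted 31, 20 and 11 times in the control libraries and 4, 6 and 5 times with ApoD overexpression (log2 fold change −1.91 ± 0.62 SE, edgeR adjusted p = 0.0239), and that call was lost without any 1 of 4 libraries, at up to 0.119 without control replicate 1, with the replicate block (0.0566), with no low-count filter (0.0578), with the abundance trend removed (0.183) and on unfiltered log2(FPKM + 1) (limma adjusted p = 0.0700).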
